A study of Homo sapiens with 4 samples.

Results

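The tubulin isotypes described here are 10 genes, the alpha-tubulins TUBA1A, TUBA1B, TUBA1C and TUBA4A and the beta-tubulins TUBB, TUBB2A, TUBB2B, TUBB3, TUBB4B and TUBB6. They were taken by gene symbol from a table of 28412 genes, in which each had 1 row. RNA-seq had been performed on 4 libraries of human leukemia cells labelled NB4, a promyelocytic line. The control cells carried the lentiviral vector sh-NC (2 libraries) and the knockdown cells carried sh-LDB1, a vector for an shRNA against the transcriptional co-regulator LDB1 (2 libraries). The labels also call the sh-NC cells untreated, give no time after infection and do not name the LDB1 shRNA that was used. They do not say whether the 2 libraries of a group came from separate cultures, so the p-values measure the spread between these libraries, which may be technical. Values are FPKM, fragments per kilobase of gene length scaled by 1 depth factor per library.

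The knockdown and the cell type were checked first. LDB1 measured 135.1 and 120.1 FPKM with sh-NC and 10.3 and 9.47 FPKM with sh-LDB1, a level of 7.73% of the control. The granulocytic markers of a promyelocytic cell were low in the control: of 8 markers with a row, the primary granule gene ELANE was listed at 0 in both control libraries, and the markers summed to 12.7 and 11.7 FPKM there, against 46.3 and 42.8 FPKM with sh-LDB1. MPO and CTSG were not analysed here. Erythroid markers summed to 3316 and 3325 FPKM with sh-NC and to 267 and 253 FPKM with sh-LDB1. The embryonic globin gene HBZ alone measured 1543 and 1600 FPKM in the control, so the markers went against the label, and the cells are called here by their vector. Markers of megakaryocytes summed to 29.4, 28.7, 51.7 and 51.9 FPKM. Among them PF4 and PPBP were at or under 0.349 FPKM, and NBEAL2 alone measured 26.1, 25.5, 46.8 and 47.8 FPKM. Markers of neurons summed to 0.156 and 0.0731 FPKM with sh-NC and 0.391 and 0.294 FPKM with sh-LDB1. Those of fibroblasts summed to 0.308 and 0.136 against 2.61 and 2.35 FPKM. Those of lymphocytes summed to 0.856 and 1.27 against 2.72 and 2.44 FPKM. All 3 sums were low, and higher with sh-LDB1. The sums cover 7 of 10 megakaryocyte, 3 of 8 neuronal, 5 of 6 fibroblast and 3 of 5 lymphocyte markers listed.

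Tubulin is a dimer of one alpha and one beta subunit, and the dimers join end to end into microtubules, which form the mitotic spindle, the tracks for vesicle transport and the frame of the cell. Vertebrates carry a family of genes for each subunit, and many of their proteins differ at the acidic carboxyl terminus, which lies on the outside of the microtubule and takes up polyglutamate chains and other modifications. Cells also limit their tubulin by degrading tubulin mRNA when free dimer builds up.

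The coding ends of 5 genes are shown because they encode the acidic terminus, and because they show TUBB2A and TUBB2B as near copies. The last 60 coding bases, stop codon included, were read from GRCh38 with the GENCODE annotation. In each of these genes they lie in exon 4 of 4. Codons for glutamate (GAA and GAG) are in capitals. The stretches are TUBA4A at chr2:219250352-219250411 (minus strand), TUBB at chr6:30724338-30724397 (plus), TUBB2A at chr6:3153863-3153922 (minus), TUBB2B at chr6:3224751-3224810 (minus) and TUBB4B at chr9:137243497-137243556 (plus).
TUBA4A: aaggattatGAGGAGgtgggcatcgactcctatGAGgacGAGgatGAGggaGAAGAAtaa
TUBB: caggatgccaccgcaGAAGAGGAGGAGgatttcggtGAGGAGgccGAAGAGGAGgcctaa
TUBB2A: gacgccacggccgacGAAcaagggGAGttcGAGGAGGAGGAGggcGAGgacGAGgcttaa
TUBB2B: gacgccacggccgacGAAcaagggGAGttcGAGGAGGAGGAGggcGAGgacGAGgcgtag
TUBB4B: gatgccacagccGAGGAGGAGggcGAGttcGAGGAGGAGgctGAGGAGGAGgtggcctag

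TUBB4B held 10 glutamate codons in this stretch, TUBB 9, TUBB2A and TUBB2B 8 each, and TUBA4A 7. The ends of TUBB2A and TUBB2B were identical at 58 of 60 bases. Over the whole coding sequence, TUBA1A and TUBA1B were identical at 97.2% of aligned bases, TUBA1B and TUBA1C at 96.8%, and TUBA4A matched these genes at 84.4% to 85.7%. Among the beta-tubulins, TUBB2A and TUBB2B were identical at 98.1%, and every other pair at 81.0% to 87.7%.

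Tubulin mRNA was lower in the knockdown cells for most isotypes, and 1 minor alpha isotype went the other way. Of the 9 members that could be tested, 7 fell and 1, TUBA1A, rose at an adjusted p below 0.05 (limma on log2(FPKM + 1), Benjamini-Hochberg over 13300 genes), and TUBB2A did not pass. TUBB3 was below the minimum of a mean of 1 FPKM. Over all genes tested, 67.4% passed at this threshold, 37.4% lower and 29.9% higher. With a fold of 2 required as well, TUBA1B, TUBA1C and TUBB were lower and TUBA1A was higher. The shares of all genes past that threshold were 19.8%, with 10.3% lower and 9.5% higher. The groups did not overlap in 8 of the 9 tested members and in TUBB3, against 84.6% of all genes tested. The median log2 fold change was -0.61 over the tested members and -0.08 over all genes tested. In bulk RNA, fewer cells of a type and less RNA per cell cannot be told apart.

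**Figure D1:**
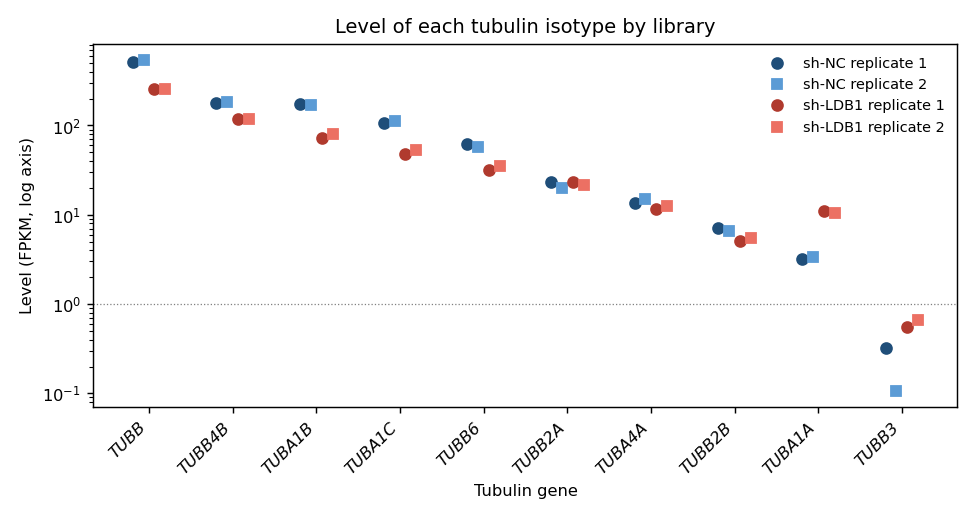
Level of each tubulin isotype in the 4 libraries (FPKM on a log axis), genes ordered by their mean with sh-NC. Blue points are sh-NC and red points sh-LDB1 libraries, circles replicate 1 and squares replicate 2, and the dotted line marks 1 FPKM. TUBB runs from 513 and 534 FPKM with sh-NC to 258 and 254 FPKM with sh-LDB1, and TUBA1A is the tested gene whose red points lie clearly above the blue ones.

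The isotypes covered a wide range of levels. In sh-NC the order by mean FPKM was TUBB, TUBB4B, TUBA1B, TUBA1C, TUBB6, TUBB2A, TUBA4A, TUBB2B, TUBA1A and TUBB3. In sh-LDB1 it was the same except that TUBA1A stood above TUBB2B. No neighbours in either order overlapped between their 2 libraries. The order rests on the gene length behind each FPKM. The FPKM steps gave a length of 3574 bases for TUBA1B, against 1627 bases for its main transcript. This length equalled the union of the annotated exons for TUBA1B alone. For the other members it differed from that union, as in TUBB (3359 against 4071 bases), TUBA1A (3421 against 3823) and TUBB3 (8860 against 7421). Per length of the main transcript, TUBA1B measured 377 ± 5.64 FPKM (SD, n = 2) with sh-NC and stood above TUBB4B, at 245 ± 4.96 FPKM.

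TUBA1B (ENSG00000123416, chr12:49127782-49131397, minus strand), the most abundant alpha-tubulin of dividing cells, measured 174 and 170 FPKM with sh-NC and 72.2 and 81.3 FPKM with sh-LDB1. Both knockdown libraries lay far below both controls. The mean fell from 172 ± 2.57 to 76.8 ± 6.40 FPKM (SD, n = 2), which is 44.7% of the control, with a log2 fold change of -1.15 (SE 0.0682) and an adjusted p of 0.000287 by limma. The values stood for 10038 and 8956 recovered reads with sh-NC and 4136 and 4396 with sh-LDB1.

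TUBA1C (ENSG00000167553, chr12:49188736-49274600, plus strand), a close relative that is also widely expressed, measured 108 and 114 FPKM with sh-NC and 47.5 and 52.6 FPKM with sh-LDB1. It fell to 45.2% of the control, with a log2 fold change of -1.13 (SE 0.0657, limma adjusted p of 0.000273). The ratio of TUBA1B to TUBA1C was 1.61 and 1.495 with sh-NC and 1.52 and 1.54 with sh-LDB1, so the groups overlapped and the exact permutation p was 1 (two-sided).

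TUBA1A (ENSG00000167552, chr12:49184686-49189080, minus strand), the alpha-tubulin best known from developing neurons, measured 3.16 and 3.33 FPKM with sh-NC and 10.9 and 10.4 FPKM with sh-LDB1. Both knockdown libraries lay above both controls. The mean rose from 3.25 ± 0.12 to 10.7 ± 0.312 FPKM (SD, n = 2), a ratio of 3.29. The log2 fold change was 1.46 (SE 0.0606, 95% interval 1.30 to 1.62, limma adjusted p of 0.000143), and adding 1 FPKM before the logarithm makes it smaller than the ratio of the means. In reads, 175 and 168 with sh-NC stood against 597 and 541 with sh-LDB1. There were 51.03 to 54.9 times as many TUBA1B as TUBA1A fragments per length with sh-NC, and 6.63 to 7.78 times as many with sh-LDB1. Of 8 neuronal markers listed, only 3 could be analysed, and none of these reached the level for testing.

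TUBA4A (ENSG00000127824, chr2:219249710-219277902, minus strand), an isotype found in platelets and other blood cells among others, measured 13.5 and 15.0 FPKM with sh-NC and 11.7 and 12.4 FPKM with sh-LDB1. The groups were apart by less than the gap between the control libraries. The log2 fold change was -0.22 (SE 0.0716, 95% interval -0.41 to -0.03, limma adjusted p of 0.0474). This call was lost without sh-NC replicate 2 (-0.15, adjusted p of 0.135), without sh-LDB1 replicate 1 (-0.18, adjusted p of 0.202) and without sh-LDB1 replicate 2 (-0.26, adjusted p of 0.103). It was also lost with no filter on low values (adjusted p of 0.091 by limma) and with eBayes without trend (0.0732).

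The promoters of TUBA1A and TUBA1B are shown because these neighbouring genes moved apart. The sequences are the 250 bases before the annotated start in RefSeq on GRCh38.p14, in the direction of transcription, at chr12:49189081-49189330 (minus) and chr12:49131396-49131645 (minus). The motif CCAAT on either strand is in capitals.
TUBA1A: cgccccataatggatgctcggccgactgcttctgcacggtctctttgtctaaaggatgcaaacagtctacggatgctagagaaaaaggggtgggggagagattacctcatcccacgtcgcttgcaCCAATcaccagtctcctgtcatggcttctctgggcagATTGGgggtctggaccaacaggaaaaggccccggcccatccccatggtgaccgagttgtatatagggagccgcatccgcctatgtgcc
TUBA1B: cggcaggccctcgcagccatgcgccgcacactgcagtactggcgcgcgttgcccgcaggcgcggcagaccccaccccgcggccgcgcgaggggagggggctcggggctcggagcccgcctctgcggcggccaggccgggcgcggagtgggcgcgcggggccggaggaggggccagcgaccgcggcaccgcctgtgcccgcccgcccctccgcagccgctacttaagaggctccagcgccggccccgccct

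The TUBA1A promoter held CCAAT at 2 places, starting 125 and 88 bases before the start site, and the TUBA1B promoter held none. Within 250 bases before to 50 bases after a start, CCAAT on either strand was found in at least 1 promoter of TUBA1A, TUBA1C, TUBB, TUBB2B, TUBB3, TUBB4B and TUBB6, and in none of TUBA1B, TUBA4A and TUBB2A. Of all 35116 RefSeq promoters, 34.6% held it. The motif was thus found both in members that fell and in the member that rose. AGATAA and TGATAA are forms of the motif of the GATA factors that work with LDB1 in blood cells. These forms were in no promoter of the 10 members on either strand, against 10.3% and 7.53% of all promoters. The forms that end in G, AGATAG and TGATAG, were not counted, and the 250 bases before the TUBB4B start hold both. The absence thus holds for the forms ending in A only. CANNTG, the E-box core, was found in TUBA1C, TUBA4A, TUBB, TUBB4B and TUBB6, against 68.7% of all promoters, TATAAA in TUBB2A alone (11.5%) and TTTGAA, part of the TCF/LEF site, in TUBA1C and TUBB4B (15.2%). AGATAA and TGATAA share the letters GATAA, and a match in these windows is a description of letters only.

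TUBB (ENSG00000196230, chr6:30717435-30725538, plus strand), the main beta-tubulin of dividing cells, was the most abundant tubulin in every library. It measured 513 and 534 FPKM with sh-NC and 258 and 254 FPKM with sh-LDB1, and the groups were far apart. The mean fell from 524 ± 15.0 to 256 ± 2.89 FPKM (SD, n = 2), to 49.0% of the control (log2 fold change -1.03, SE 0.0445, limma adjusted p of 0.000152). With 12926 to 27888 recovered reads per library it was the most deeply counted member.

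TUBB4B (ENSG00000188229, chr9:137241287-137243707, plus strand), a broadly expressed isotype that is also prominent in ciliated cells, measured 179 and 184 FPKM with sh-NC and 118 and 119 FPKM with sh-LDB1. It fell less than TUBB, to 65.1% of the control (log2 fold change -0.61, SE 0.0396, limma adjusted p of 0.000357). The ratio of TUBB to TUBB4B was 2.87 and 2.90 with sh-NC and 2.19 and 2.14 with sh-LDB1. These ratios did not overlap, with an exact permutation p of 0.333 (two-sided), the smallest that 2 against 2 libraries can give.

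TUBB6 (ENSG00000176014, chr18:12307669-12344320, plus strand), a divergent beta-tubulin with broad expression, measured 62.2 and 57.7 FPKM with sh-NC and 31.8 and 35.3 FPKM with sh-LDB1. It fell to 56.0% of the control (log2 fold change -0.82, SE 0.071, limma adjusted p of 0.000797), and both knockdown libraries lay below both controls.

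TUBB2A (ENSG00000137267, chr6:3153497-3157544, minus strand) and TUBB2B (ENSG00000137285, chr6:3223324-3231730, minus strand) are neighbouring near copies known from neurons. TUBB2A measured 23.2 and 19.8 FPKM with sh-NC and 23.4 and 21.7 FPKM with sh-LDB1, and the groups overlapped. Its log2 fold change was 0.07 (SE 0.0903, 95% interval -0.17 to 0.31, limma adjusted p of 0.539), an interval that leaves out a fall of the size seen in TUBB or TUBB6. TUBB2B measured 7.04 and 6.55 FPKM with sh-NC and 5.04 and 5.45 FPKM with sh-LDB1, with a log2 fold change of -0.32 (SE 0.0704, limma adjusted p of 0.0148). The TUBB2B call was lost without sh-NC replicate 1 (-0.28, adjusted p of 0.067) and without sh-LDB1 replicate 1 (-0.27, adjusted p of 0.0891). As the genes share so much sequence, their sum was also taken, and it overlapped between the groups, at 30.2 and 26.4 FPKM with sh-NC and 28.4 and 27.2 FPKM with sh-LDB1.

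TUBB3 (ENSG00000258947, chr16:89921392-89938761, plus strand), the beta-tubulin used as a marker of neurons, measured 0.321 and 0.107 FPKM with sh-NC and 0.55 and 0.656 FPKM with sh-LDB1. Both knockdown libraries lay above both controls, at a level too low for the test. The recovered reads were 46, 14, 78 and 88, and as these are all even they may be a multiple of the true counts.

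**Figure D2:**
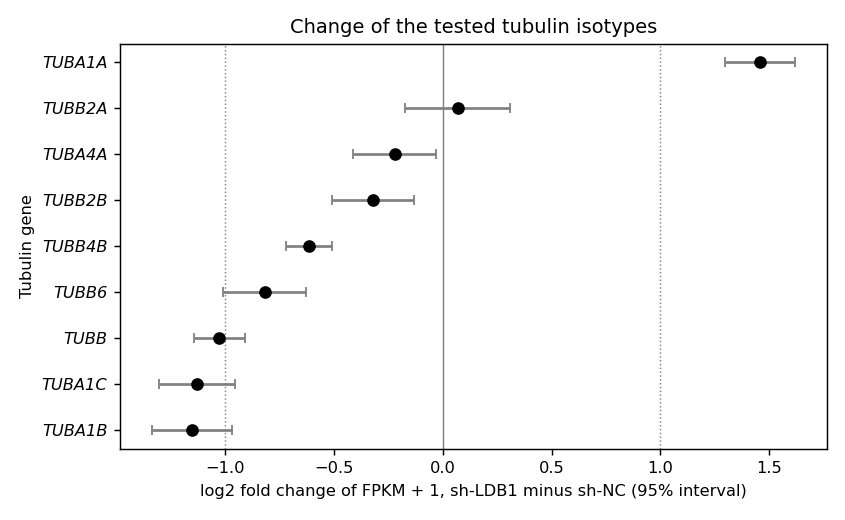
Change of the 9 tested tubulin isotypes, as the log2 fold change of FPKM + 1 (sh-LDB1 minus sh-NC). Points are limma estimates from 2 against 2 libraries, bars are 95% intervals, and dotted lines mark a fold of 2. TUBA1B and TUBA1C lie lowest, at -1.15 and -1.13, TUBB2A spans 0, and TUBA1A lies at 1.46.

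The fold calls of the 3 abundant genes sit close to the threshold. In libraries rescaled to the same summed FPKM, which moved the median of all genes by 0.15 on the log2 scale, TUBA1B, TUBA1C and TUBB stood at -0.98, -0.96 and -0.85, so that 0 members were lower past a fold of 2. They stayed below an adjusted p of 0.05 (limma). Without sh-NC replicate 2, 2 members were lower past the fold. Over all genes tested, this rescaling turned 1264 higher and 1371 lower calls past the fold into 1628 and 995. A test of a fold beyond 2 (limma treat) also called 0 members lower, while TUBA1A was called higher in both settings. After the rescaling TUBA4A and TUBB2B no longer passed (-0.06 and -0.17, adjusted p of 0.497 and 0.099), and no member changed its direction.

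The summed tubulin level was lower in each knockdown library than in each control. The 10 members summed to 1083 and 1105 FPKM with sh-NC and to 579 and 593 FPKM with sh-LDB1, 53.6% of the control. They made up 0.339% and 0.346% of the summed FPKM of all genes with sh-NC, against 0.203% and 0.211% with sh-LDB1. The alpha members summed to 298 and 302 FPKM with sh-NC and to 142 and 157 FPKM with sh-LDB1 (log2 ratio -1.004). The beta members summed to 785 and 803 FPKM with sh-NC and to 437 and 436 FPKM with sh-LDB1 (log2 ratio -0.86). Neither sum overlapped between the groups, and each gave an exact permutation p of 0.333, the smallest possible here. The ratio of alpha to beta was 0.38 and 0.376 with sh-NC and 0.326 and 0.359 with sh-LDB1. Its level depended on the gene length used, with 0.523 and 0.52 against 0.442 and 0.486 per length of the main transcripts, and it was lower with sh-LDB1 either way, by a gap smaller than the spread between the knockdown libraries. Without sh-LDB1 replicate 1 the log2 difference was -0.07, and without sh-LDB1 replicate 2 it was -0.21.

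The minor alpha members held larger shares in the knockdown. TUBA1A made up 1.06% and 1.10% of the summed alpha-tubulin FPKM with sh-NC and 7.65% and 6.67% with sh-LDB1. The share of TUBA4A was 4.53% and 4.98% with sh-NC and 8.22% and 7.93% with sh-LDB1. TUBA1B had 58.2% and 56.3% with sh-NC and 50.7% and 51.8% with sh-LDB1. Both minor alpha isotypes thus held a larger share in each knockdown library than in each control, and TUBA1B a smaller one. Among the beta-tubulins, the share of TUBB was 65.4% and 66.6% with sh-NC and 59.1% and 58.3% with sh-LDB1. TUBB4B, whose own level fell, held 22.8% and 22.9% with sh-NC and 27.0% and 27.2% with sh-LDB1. TUBB2A, with no change in level past the test, had 2.96% and 2.47% with sh-NC and 5.35% and 4.97% with sh-LDB1. The share of TUBB6 overlapped between the groups, at 7.92% and 7.19% against 7.28% and 8.09%. Each share that did not overlap had an exact permutation p of 0.333.

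**Figure D3:**
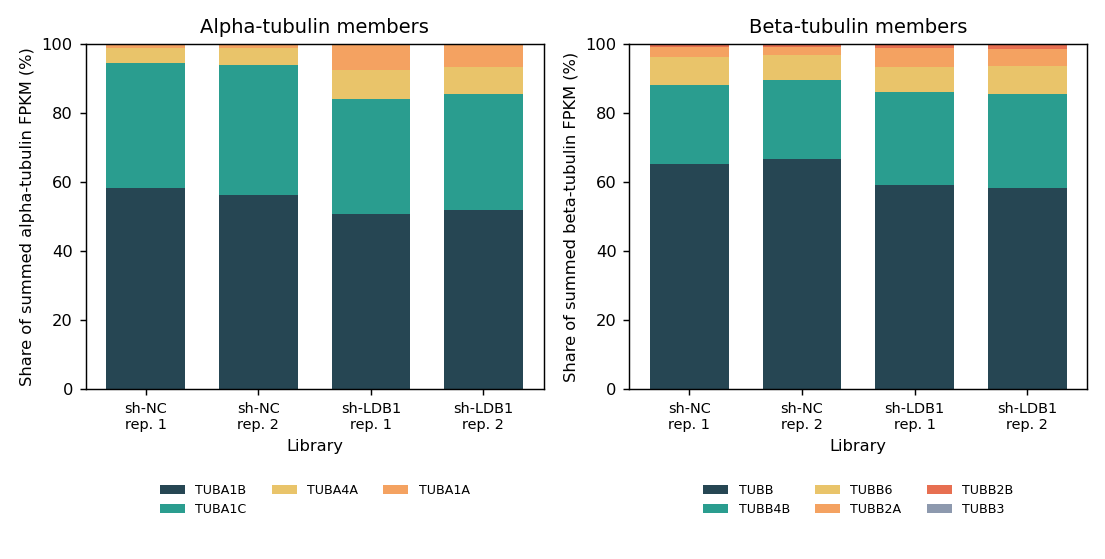
Share of each isotype in the summed alpha-tubulin (left) and beta-tubulin (right) FPKM of each library, in percent, as stacked bars from 0 to 100. In the alpha panel the TUBA1A segment at the top grows from 1.06% and 1.10% with sh-NC to 7.65% and 6.67% with sh-LDB1. In the beta panel the TUBB segment at the bottom shrinks from 65.4% and 66.6% to 59.1% and 58.3%.

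How far reads can be told apart differs between the isotypes. Of 150-base windows along the main transcript, 48.7% in TUBB2A and 41.6% in TUBB2B were found in a transcript of another gene, mostly in each other. In TUBA1B it was 19.1%, in TUBA1A 8.01% and in TUBA1C 7.22%, again mostly in each other, in TUBB 2.66% (in the pseudogene TUBBP1), and in TUBA4A, TUBB4B and TUBB6 it was 0%. In TUBB3 it was 92.3%, nearly all in the overlapping readthrough gene ENSG00000198211, which was at most 0.0238 FPKM. How the counting treated a read that fits more than 1 gene is not given in the sources used here, and neither is the read length, so the splits between TUBB2A and TUBB2B and among the TUBA1 genes are uncertain. With 50-base windows the shares were 64.6% in TUBB2A, 54.9% in TUBB2B, 62.7% in TUBA1B and 47.3% in TUBA1A. They were 26.7% in TUBA1C and 19.3% in TUBB, there mostly in TUBBP1. In TUBA4A, TUBB4B and TUBB6 they were 5.55%, 10.4% and 1.09%. TUBA1A rose while TUBA1B and TUBA1C, the genes it shares windows with, fell. The part of shared reads in these changes was not tested. The sum of the 3 TUBA1 genes was 285 and 287 FPKM with sh-NC and 131 and 144 FPKM with sh-LDB1.

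**Figure D4:**
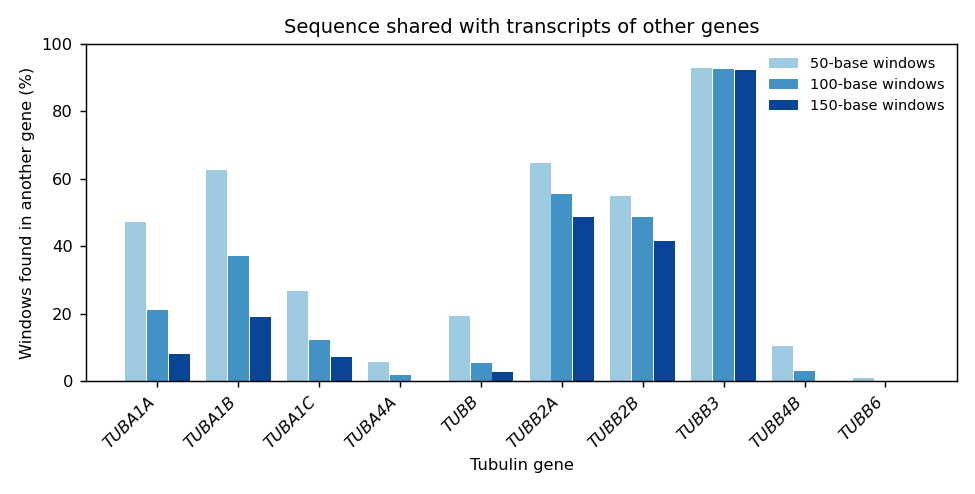
Percent of windows of 50, 100 and 150 bases along the main transcript of each isotype that occur in an annotated transcript of another gene. The 150-base bars reach 48.7% for TUBB2A, 41.6% for TUBB2B and 92.3% for TUBB3, and stand at 0% for TUBA4A, TUBB4B and TUBB6.

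Several members also overlap other genes on the opposite strand, and the use of strand in the counting is not given in the sources used here. TUBA1A and TUBA1C overlap each other by 345 bases, and the long noncoding RNA TUBA1B-AS1, which runs across TUBA1B and 3799 bases of TUBA1A, measured at most 0.492 FPKM. All overlaps here are of gene spans, introns included. TUBB6 overlaps AFG3L2 by 15377 bases. AFG3L2 measured 23.0 and 23.4 FPKM with sh-NC and 7.32 and 6.55 FPKM with sh-LDB1. TUBB2B overlaps PSMG4 by 328 bases, with 6.77 and 5.70 FPKM with sh-NC and 2.72 and 2.80 FPKM with sh-LDB1. STK16, which overlaps TUBA4A by 628 bases, measured 4.10 and 4.07 FPKM with sh-NC and 4.66 and 5.28 FPKM with sh-LDB1. BPHL, which overlaps TUBB2A by 82 bases, measured 2.5 and 2.43 FPKM against 1.53 and 1.45 FPKM. AFG3L2 and PSMG4 were thus lower beside members that fell, and BPHL was lower beside TUBB2A, which did not pass. STK16 was higher beside a member that fell, and TUBA1A and TUBA1C moved apart. The part of these partners in the result was not tested.

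Other tubulin genes were mostly low. Of 12 with a row, 6 were tested, 4 fell and 0 rose at an adjusted p below 0.05 (limma), though 1 was higher after the rescaling given above. TUBB1, the beta-tubulin of platelets and their precursors, measured 5.97 and 5.41 FPKM with sh-NC and 0.286 and 0.378 FPKM with sh-LDB1. TUBE1, the epsilon-tubulin of centrioles, measured 3.82 and 3.89 FPKM against 0.976 and 0.844 FPKM. Both passed the minimum of 1 FPKM only through sh-NC, where they were high, so their calls are no support. Without them 2 of 4 fell and 0 rose, against 37.4% lower and 29.9% higher of all genes tested. The 2 that fell were the delta-tubulin TUBD1 (-0.58) and TUBG1, the gamma-tubulin that nucleates microtubules (-0.51). TUBAL3 (0.10, adjusted p of 0.156) and TUBB4A (0.17, adjusted p of 0.319) did not pass by limma. TUBA3D, TUBA3E, TUBA4B, TUBA8, TUBB8 and TUBG2 were below the minimum for testing, with at most 1.09 FPKM in any library, the level of TUBA3D with sh-LDB1.

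Among the genes that fold tubulin, the subunits of the chaperonin CCT were lower, by unlike amounts. Of 23 tested genes for the chaperonin, prefoldin and tubulin cofactors, 14 fell and 2 rose, with a median log2 fold change of -0.28. After the rescaling given above, 11 of them fell and 5 rose. The shares over all genes tested were 37.4% lower and 29.9% higher. Outside the chaperonin, TBCA, TBCD, ARL2, VBP1, PFDN4 and PDCL3 fell, and most of the others did not pass. All 8 tested subunits of the chaperonin CCT, the ring that folds newly made tubulin and actin, were among those that fell (median -0.83). CCT2 fell most, from 106.2 and 106.0 to 45.6 and 45.8 FPKM (-1.20, limma adjusted p of 9.565e-05), and TCP1 and CCT6A fell least (-0.24 each). The largest rise was in TBCC, a cofactor in the assembly of the dimer, from 22.0 and 24.3 to 33.9 and 32.1 FPKM (0.49, limma adjusted p of 0.0031). TTC5, which recognises nascent tubulin chains and starts the decay of tubulin mRNA, measured 1.32 and 1.62 FPKM with sh-NC and 1.97 and 1.88 FPKM with sh-LDB1 and did not pass (0.25, adjusted p of 0.128 by limma).

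The enzymes that modify tubulin showed no common direction. Of 12 tested, 3 were higher and 5 lower, against 29.9% higher and 37.4% lower of all genes tested. Their median was -0.08, that of all genes tested. AGTPBP1, a carboxypeptidase that trims glutamates from the tubulin end, fell most, from 5.005 and 5.51 to 1.64 and 1.83 FPKM (log2 fold change -1.19, limma adjusted p of 0.000511). HDAC6, a tubulin deacetylase, rose most, from 11.7 and 10.9 to 14.5 and 14.9 FPKM (0.35, limma adjusted p of 0.00594). TTL, the ligase that puts the terminal tyrosine back on alpha-tubulin, measured 5.19 and 5.58 FPKM with sh-NC and 3.73 and 3.79 FPKM with sh-LDB1 (-0.42, limma adjusted p of 0.00528).

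In the gamma-tubulin ring complex and its anchors, 5 of 11 tested genes fell and 1 rose, with a median of -0.17. CDK5RAP2, a centrosomal protein that binds and activates the ring complex, fell from 15.6 and 16.7 to 6.62 and 6.16 FPKM (-1.21, limma adjusted p of 0.000213). TUBGCP6 rose by 0.16, a call that every removal of 1 library ended.

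Among 25 tested genes for microtubule dynamics, 12 fell and 7 rose, with a median of -0.11. For this list as for the ring genes, the counts are to be read against the 37.4% lower and 29.9% higher of all genes tested. The stathmins, which bind free tubulin dimers, were among those that fell. STMN3 measured 23.3 and 21.5 FPKM with sh-NC and 3.52 and 4.64 FPKM with sh-LDB1 (-2.21, limma adjusted p of 0.000251). STMN1 measured 53.5 and 58.0 FPKM with sh-NC and 23.4 and 23.1 FPKM with sh-LDB1 (-1.23, limma adjusted p of 0.000158). CAMSAP2, which caps the minus ends of microtubules outside the centrosome, measured 0.381 and 0.514 FPKM with sh-NC and 2.79 and 2.36 FPKM with sh-LDB1. It had the largest log2 fold change upwards (1.30), but passed the minimum of 1 FPKM only through sh-LDB1, where it was high. Without it 6 of 24 rose. Next was CLIP1, which tracks growing plus ends, from 2.41 and 2.503 to 5.94 and 5.90 FPKM (limma adjusted p of 0.000375).

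**Figure D5:**
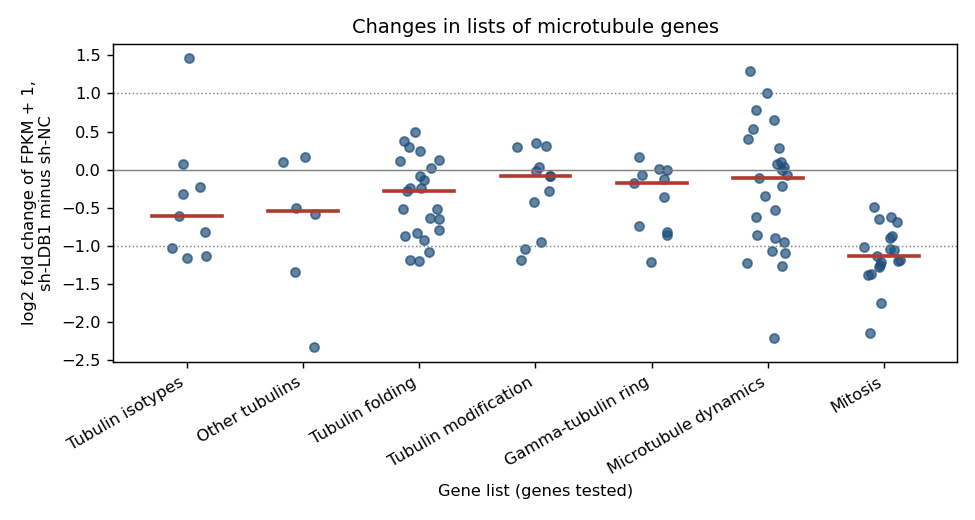
Log2 fold change of FPKM + 1 (sh-LDB1 minus sh-NC) of each tested gene in the tubulin isotypes and 6 lists of related genes, with points spread sideways for visibility. Red bars are list medians and dotted lines mark a fold of 2. The medians are -0.61 for the tubulin isotypes and -1.13 for the mitosis genes, where every point lies below 0, and -0.08 for the tubulin modification genes.

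Genes of mitosis, which uses much of the tubulin of a dividing cell, were lower, as were most of the tested tubulin isotypes. All 19 tested of 20 fell, 13 of them past a fold of 2, with a median of -1.13. Over all genes tested, 37.4% fell, 10.3% fell past a fold of 2, and the median was -0.08. Their summed level was 830 and 868 FPKM with sh-NC and 356 and 362 FPKM with sh-LDB1. TOP2A, a topoisomerase of dividing cells, fell most, from 112 and 116 to 24.8 and 24.9 FPKM (-2.15, limma adjusted p of 6.774e-05). The erythroid markers fell in 11 of 11 tested genes (8 of 8 of those above the minimum in both groups). The granulocytic markers rose in 5 of 7 (4 of 4). These counts stand against 37.4% lower and 29.9% higher of all genes tested. In the same libraries TUBB, TUBA1B and TUBA1C fell, TUBA1A rose and TUBB2A did not pass. The part of the mitosis genes and of these markers in the tubulin result was not tested.

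The genes most alike in their pattern were sought among the 4832 genes whose 4 libraries averaged 10 FPKM or more, by the root mean square difference of centred log2(FPKM + 1) over the 4 libraries. For TUBA1B they were GAGE2A (0.00655), a member of a cluster of near-identical copies, DUS1L (0.0258) and MRTO4 (0.029). For TUBB they were MDH2 (0.00414), DDX1 (0.00596) and LARS (0.0107). MDH2, a mitochondrial malate dehydrogenase, measured 168 and 176 FPKM with sh-NC and 84.9 and 83.1 FPKM with sh-LDB1. The 4 libraries fall into 2 groups, so genes with a similar difference between the groups rank high by this measure.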

How the data were processed

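RNA-seq libraries were made from total RNA with an Illumina TruSeq kit. The authors filtered the reads, mapped them to hg38 with HISAT2 2.0.5 (per the submitters' processing notes) and deposited 1 table of FPKM per gene and library, with the replicates kept apart. The counting tool, gene annotation and use of strand are not given in the sources used here. The authors' own test was DESeq2, which needs counts.

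Groups and replicate numbers came from the sample titles. The 13300 of 28412 genes that averaged 1 FPKM or more were tested on log2(FPKM + 1) with limma 3.58.1 in R 4.3.3 (eBayes with a variance trend, Benjamini-Hochberg adjustment, 2 against 2 libraries). Adding 1 FPKM makes the fold change of low genes smaller than it is. Sums, ratios and shares were compared by exact permutation over libraries, two-sided, which cannot go below 0.333. Python 3.11.15, numpy 2.4.6 and pandas 2.3.3 were used elsewhere.

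Whole reads were recovered from the FPKM steps. With exon lengths of GENCODE 44, 98.96% of genes gave whole reads in all libraries (tolerance 0.005 read, plus 1e-06 per read). The totals were 18814919 and 17255507 reads for sh-NC and 17138130 and 16098923 for sh-LDB1, and their absolute size rests on those lengths. Replicates were further apart than sampling noise (chi-square per gene 4.94 in sh-NC and 2.45 in sh-LDB1). Sequences came from GRCh38 (GENCODE 44) and the RefSeq promoter table. All 10 members matched. The coding ends of some members are not reported here. The scripts were tested on simulated data.

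The members, the 6 lists of related genes and the 6 marker lists were chosen with earlier results of these data known. Genes named beside the members were LDB1, the other tubulins, the largest rise and fall of each list, the defining markers and the 3 genes most like TUBA1B and TUBB. STMN1, CLIP1, TTL, TTC5, NBEAL2 and the CCT subunits were named after their values were seen, as were the overlapping genes. TBCE had 2 rows, and the higher was used. Alternatives were other pseudocounts (0.1 and 0.01), filters, scaling, a replicate block, no variance trend, limma treat, voom on the recovered reads, removal of each library, and the length of the main transcript, which was added after seeing the data.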

Additional observations from a re-analysis of the deposited data

How the results depend on the processing

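TUBA1A was the 1 member higher in every alternative run. At an adjusted p below 0.05, 5 to 7 members were lower over the alternatives, with 5 after rescaling and 5 without sh-LDB1 replicate 1. Past a fold of 2, 2 were lower without sh-NC replicate 2. The number of members lower past a fold of 2 went from 3 to 0 after rescaling to the same summed FPKM and to 0 under limma treat. Rescaling also gave 1 other tubulin higher instead of 0, 5 folding genes instead of 2, 2 gamma-tubulin ring genes instead of 1 and 11 dynamics genes instead of 7. The cause was not tested. Voom on recovered reads gave 4 folding genes higher, and called 1742 genes higher and 1917 lower past a fold of 2 against 1264 and 1371. Under limma treat these were 568 and 581, and 710 genes were higher with a mean of at least 5 FPKM required. That stricter filter, which tests fewer genes, left 1 other tubulin lower, 3 modification genes lower, 3 gamma-tubulin ring genes lower and 2 dynamics genes higher.

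The deviations of same-numbered libraries correlated at 0.0196 over 13300 genes, so no effect shared by replicate number was seen. The sample titles do not say whether same-numbered libraries were paired, and this correlation cannot settle it. With a replicate block, 1 member was higher and 3 were lower past a fold of 2, as without it, and the gamma-tubulin ring genes that rose went from 1 to 0. This count was also 0 with eBayes without trend, and 0 to 0 when 1 library was left out. With 1 library left out, its group had a lone sample, assumed to vary like the other group. The share of TUBB6 then differed by -0.274 to 0.529 percentage points, against 0.127 with all libraries, and by -0.0362 per length of the main transcript. TUBB2A turned to -0.04 without sh-NC replicate 2 and ranged up to 0.18. TUBB3, at under 1 FPKM, and the exact tests, with 2 libraries a group, are limited by depth and by the number of libraries.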
